A study of Mus musculus with 10 samples.

Results

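The extracellular proteases and inhibitors measured here are the matrix metalloproteinases (Mmp genes), the ADAMTS proteases (Adamts genes) and the tissue inhibitors of metalloproteinases (Timp1 to Timp4) of mouse retina. The rule that picked them used gene symbols and no measured value, but earlier results of these data were known when it was set. It took every gene whose symbol is Mmp or Adamts followed by a number, and Timp1, Timp2, Timp3 and Timp4. This gave 44 of the 30063 genes that the array annotation names, of which 22 are Mmp, 18 are Adamts and 4 are Timp genes. Each was read by 1 transcript cluster, the array's set of probes for a gene, and its level is that cluster's deposited log2 signal.

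Whole retinas of C57BL/6JJmsSlc mice were measured on 10 arrays, with 2 arrays in each of 5 groups. Untreated retinas were taken at postnatal day 7 and at postnatal day 17. In the other groups, all taken at day 17, oxygen-induced retinopathy (OIR) had been produced by keeping pups in 75% oxygen for 5 days from day 7, then in room air; some were left uninjected, and the others had phosphate-buffered saline (PBS) or ISOX DUAL put into the vitreous as soon as the oxygen ended. ISOX DUAL is known as an inhibitor of the bromodomains of CBP/p300 and BET proteins, and the series sought genes raised in OIR that the inhibitor brought back. No dose and no vehicle beyond the PBS group is given in the labels, and nothing in them ties an array to an animal, a litter or a pool. The p-values therefore measure the spread between arrays, part of which may be technical.

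Matrix metalloproteinases are zinc enzymes that are made as inactive precursors and cut collagens, laminins, fibronectin and many cell-surface proteins. ADAMTS proteases are secreted relatives with thrombospondin repeats that bind the matrix; several of them, the hyalectanases, cut versican, aggrecan and the related proteoglycans of the hyaluronan network. TIMPs block the active site of matrix metalloproteinases, and Timp3 also blocks some ADAMTS proteases. In the retina the balance between them is studied because new vessels have to pass through basement membrane and the inner limiting membrane to reach the vitreous.

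Of the 44 genes, 35 passed the filter on low signal, which asked for a value above the array's 30th percentile on at least 2 arrays, and were tested: 13 Mmp, all 18 Adamts and all 4 Timp genes. As a yardstick for a low signal, each array also carries negative control probes, whose median was 5.83 to 6.11 log2 on the 10 arrays. On that yardstick 15 of the 44 lay above the median on every array, 12 on some arrays and 17 on none, and only 2 genes, Adamts3 and Timp2, passed the 95th percentile of the negative controls on any array. Where a group lay below the median on both arrays, a log2 difference from it is the fitted value and not an exact size, and no fold is given. Levels of different genes are not compared, since each probe set has its own response. Signal over background was alike on the arrays, with 8.00% to 9.97% of all transcript clusters above that 95th percentile. Markers of lens, a tissue next to the vitreous, differed between arrays: the mean of 6 lens markers was 8.82 on the second ISOX DUAL array and 6.84 on the first, against 6.41 and 6.73 with PBS and 5.93 to 6.40 on the other 6 arrays, so results that involve the ISOX DUAL group are given with each array.

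The 9 genes that were not tested all belong to 1 run of neighbours. In the RefSeq annotation of GRCm38.p6, Mmp13, Mmp12, Mmp1b, Mmp3, Mmp1a, Mmp10, Mmp8, Mmp27, Mmp20 and Mmp7 follow each other on chromosome 9 with no other protein-coding gene between them. This run holds the collagenases (Mmp13, Mmp8 and the mouse counterparts of interstitial collagenase, Mmp1a and Mmp1b), the stromelysins Mmp3 and Mmp10, the matrilysin Mmp7, the macrophage elastase Mmp12 and the enamel protease Mmp20. Their values lay between 2.38 and 4.83 log2, below the negative control median on all 10 arrays, and Mmp20 alone passed the filter. Mmp12 read 4.24 and 3.82 in uninjected OIR, 3.53 and 3.42 in untreated day 17 retina, 3.48 and 3.60 with PBS, 3.60 and 4.14 with ISOX DUAL, and 3.52 and 3.60 at day 7. All 10 of these Mmp12 values are under the background yardstick, so no size is given for a difference between them. Of 8 microglia and macrophage markers, 5 had a group mean above the negative control median in uninjected OIR and 4 in untreated day 17 retina. Between these groups 0 of the 7 markers tested were called, and 5 of 7 differences were above 0. The part of these cells in the Mmp12 values was not tested.

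Most promoters of this run share a sequence feature that the choice of genes did not use. The 250 bases before the annotated start were searched for TGANTCA, a pattern that is its own reverse complement and so covers both strands. It is looser than the AP-1 element, whose middle base is C or G. Of the 30 genes with a RefSeq promoter (33 windows), 8 held a match, all within the run: 8 of 10 there and 0 of 20 elsewhere. Among all 32851 RefSeq promoter windows of this length, 6.75% held one. A match describes these letters and is not a measured site. The run's 10 genes are neighbours of the same family, so they are not separate draws against the share in all windows. The run was singled out by its low signal, and a tie between match and signal was not tested. The 8 promoters with a match are shown. Each line gives the 100 bases before the start, 5′ to 3′ on the gene's strand, with the match in capitals (RefSeq, GRCm38.p6).
Mmp13, chr9:7272414-7272513, plus strand: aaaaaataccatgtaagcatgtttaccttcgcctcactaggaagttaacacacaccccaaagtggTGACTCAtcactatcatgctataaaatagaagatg
Mmp12, chr9:7347274-7347373, plus strand: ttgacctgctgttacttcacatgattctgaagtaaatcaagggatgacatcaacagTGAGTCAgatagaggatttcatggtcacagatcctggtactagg
Mmp1b, chr9:7388027-7388126, minus strand: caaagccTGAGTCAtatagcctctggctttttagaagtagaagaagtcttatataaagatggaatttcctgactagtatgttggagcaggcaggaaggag
Mmp3, chr9:7445722-7445821, plus strand: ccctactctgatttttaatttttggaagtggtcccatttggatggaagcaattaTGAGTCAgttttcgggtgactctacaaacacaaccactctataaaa
Mmp1a, chr9:7464041-7464140, plus strand: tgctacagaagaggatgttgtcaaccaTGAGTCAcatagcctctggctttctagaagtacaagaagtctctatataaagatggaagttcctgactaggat
Mmp10, chr9:7502242-7502341, plus strand: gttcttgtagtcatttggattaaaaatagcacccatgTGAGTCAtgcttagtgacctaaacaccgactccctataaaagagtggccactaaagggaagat
Mmp20, chr9:7628131-7628230, plus strand: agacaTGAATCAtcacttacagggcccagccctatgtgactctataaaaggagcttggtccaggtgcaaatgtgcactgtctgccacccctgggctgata
Mmp7, chr9:7691990-7692089, plus strand: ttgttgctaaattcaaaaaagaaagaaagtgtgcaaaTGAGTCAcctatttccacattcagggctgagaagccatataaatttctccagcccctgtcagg

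The first base of the match lay 35 bases before the start in Mmp13, 44 in Mmp12, 46 in Mmp3, 63 in Mmp10 and in Mmp7, 73 in Mmp1a, 93 in Mmp1b and 95 in Mmp20. Of the 8 matches, the one of Mmp20 reads TGAATCA, outside the stricter AP-1 form. That of Mmp13 reads TGACTCA and the others read TGAGTCA. A second motif, ACGTG, a form of the core that hypoxia-inducible factors bind, was searched on both strands of the same windows. The form GCGTG was not counted. ACGTG was present in 7 of the 30 genes (Adamts17, Adamts18, Adamts20, Adamts3, Mmp14, Mmp7 and Timp1) and in 16.6% of all windows. The first is a count by gene, where a gene may have several windows, and the second a share by window. In Mmp7 the ACGTG match lay before another annotated start, outside the bases shown above. Neither TGANTCA nor ACGTG was found in the 250 bases before the start of Adamts9 and Adamts1, the genes of the set with the smallest p-values in OIR. Both promoters hold GCGTG, which was not counted. They read as follows, 5′ to 3′.
Adamts9, chr6:92943535-92943784, minus strand: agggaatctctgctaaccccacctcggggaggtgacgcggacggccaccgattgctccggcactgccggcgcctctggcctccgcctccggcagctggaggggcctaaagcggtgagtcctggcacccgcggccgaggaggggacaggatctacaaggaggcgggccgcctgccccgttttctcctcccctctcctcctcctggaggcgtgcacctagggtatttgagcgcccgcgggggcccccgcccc
Adamts1, chr16:85803114-85803363, minus strand: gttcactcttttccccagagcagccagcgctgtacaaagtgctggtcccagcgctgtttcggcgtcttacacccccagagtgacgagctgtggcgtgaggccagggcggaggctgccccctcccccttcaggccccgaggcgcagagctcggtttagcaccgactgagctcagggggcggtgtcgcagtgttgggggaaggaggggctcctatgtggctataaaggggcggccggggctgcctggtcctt

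In uninjected OIR retina, Adamts9 was the member that passed the test against untreated day 17 retina. Over all genes, 115 of 23255 passed it (0.495%; 106 higher, 0.456%, and 9 lower, 0.0387%), at a Benjamini-Hochberg adjusted p under 0.05 in limma. Among the 35 members tested, 1 was higher and 0 were lower. The members' median log2 difference was -0.01 against -0.04 for all genes, and 16 of the 35 differences were above 0. At an unadjusted p under 0.05 there were 6 members, Adamts1, Adamts12, Adamts4, Adamts5, Adamts9 and Mmp14, beside 6.10% of all genes. The OIR arrays lay wholly above or wholly below the untreated ones for 19 of 35 members (28.4% of all genes).

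Adamts9 encodes a secreted protease that cuts versican and aggrecan. It read 6.22 and 6.26 in uninjected OIR and 5.65 and 5.63 in untreated day 17 retina. It read 5.85 and 5.82 with PBS, 5.70 and 5.64 with ISOX DUAL, and 5.45 and 5.50 at day 7. Both uninjected OIR arrays were above the other 8 arrays, and they were the only ones above the negative control median. The fitted difference between OIR and untreated retina was 0.60 ± 0.08 (SE) log2 (adjusted p = 0.0304). Both untreated arrays lay below background, so this value is no exact size. It was 0.58 to 0.64 in the alternative settings, but the call was lost without any 1 of the untreated day 17, OIR, PBS or ISOX DUAL arrays (adjusted p 0.0758 to 0.186) and with limma array weights (0.111). Over all the settings tried, the adjusted p ran from 0.0202 to 0.534, the latter with the 4 arrays of the comparison alone.

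Adamts1, another hyalectanase, known also for binding vascular endothelial growth factor and slowing vessel growth, had the largest difference among the members. It read 7.75 and 7.86 in uninjected OIR against 6.99 and 6.77 in untreated day 17 retina, 7.20 and 7.06 with PBS, 7.29 and 6.95 with ISOX DUAL, and 6.87 and 7.12 at day 7. Its uninjected OIR arrays, too, stood above all the others. The difference of 0.92 ± 0.15 log2 (0.58 to 1.27), 1.90-fold, narrowly missed the threshold (adjusted p = 0.0550). With an intensity trend in the variance the adjusted p was 0.0425, and over all settings it ran from 0.0205 to 0.396. The lowest of these came from a replicate block in which the array numbers of both injected groups were crossed, a setting chosen after the data were seen.

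**Figure D1:**
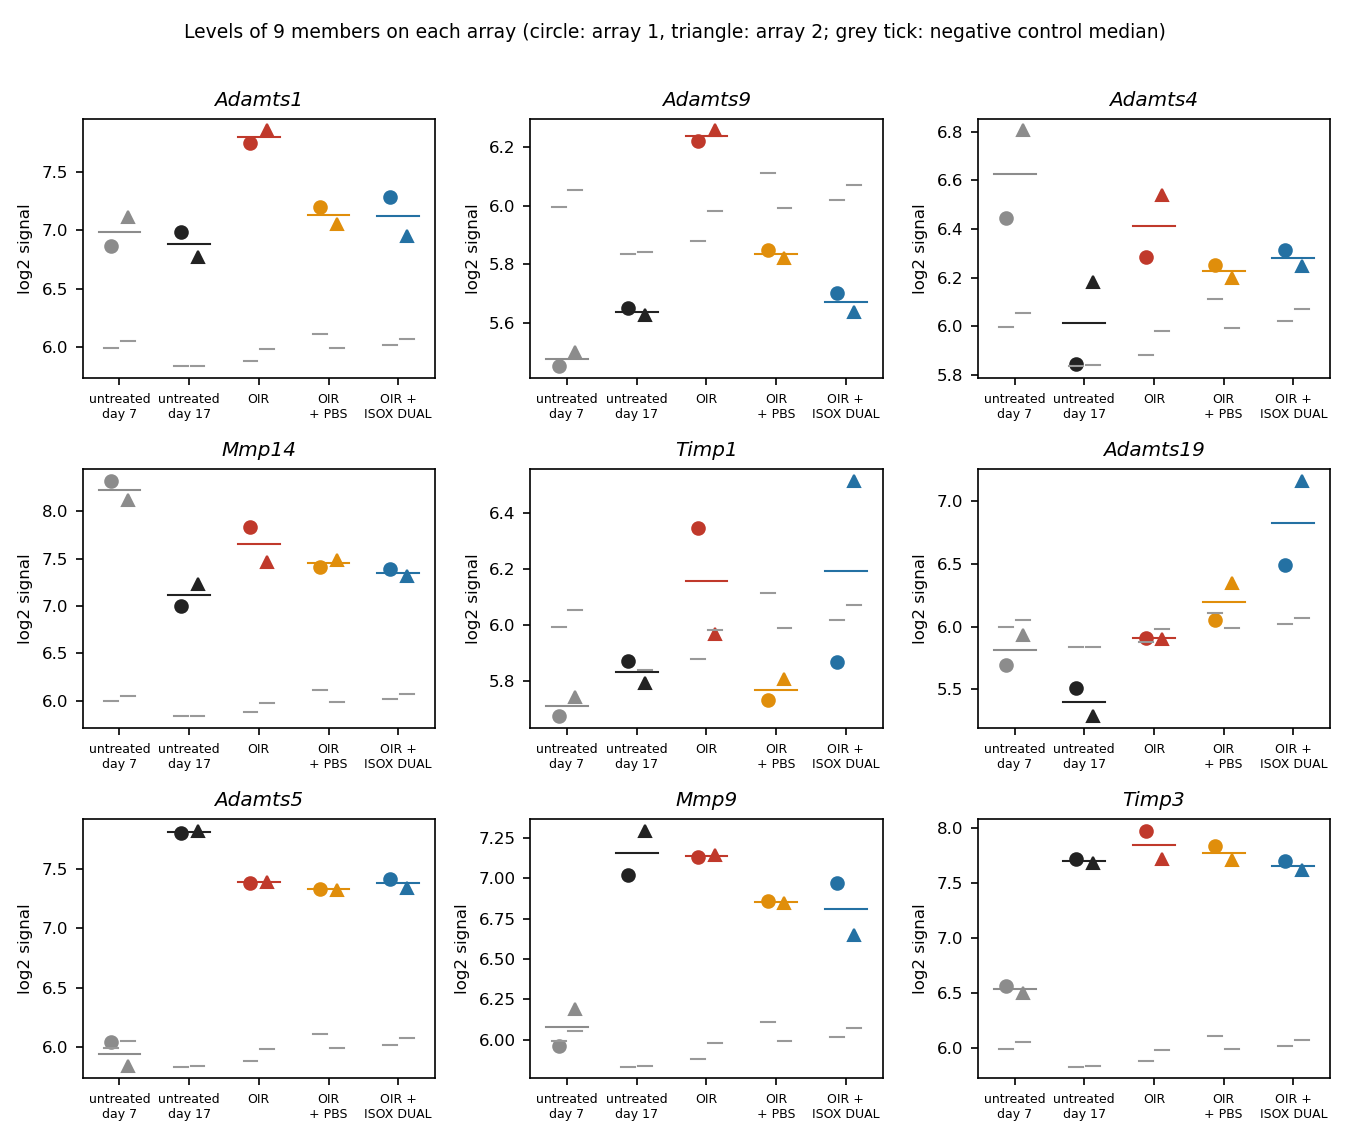
Deposited log2 signal of 9 members on each of the 10 arrays, by group (horizontal axis: the 5 groups; vertical axis: log2 signal, with its own range in each panel). The circle is the first array and the triangle the second, the line is the group mean and the grey tick the array's negative control median; Adamts9 and Adamts1 are highest on both uninjected OIR arrays, at 6.22 and 6.26 and at 7.75 and 7.86.

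None of the other hyalectanases passed the test. Adamts5, the main aggrecanase of cartilage in mice, lies next to Adamts1 in the genome. It read 7.39 and 7.39 in uninjected OIR against 7.81 and 7.83 in untreated day 17 retina, a difference of -0.43 ± 0.09 log2 (-0.65 to -0.21) with an adjusted p of 0.179. Adamts4, also an aggrecanase, read 6.29 and 6.54 against 5.84 and 6.18, a difference of 0.40 ± 0.16 (0.02 to 0.78; adjusted p = 0.760). It was 0.23 without the first untreated array and 0.27 without the second OIR array. For both genes the OIR and untreated arrays did not overlap, but neither passed the test. Adamts8, Adamts15 and Adamts20 lay below the negative control median on every array. Across the 7 hyalectanases, the differences ran from -0.43 to 0.92, and 3 of 7 were above 0.

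The ADAMTS proteases with other substrates gave no call in OIR. Adamts3 and Adamts14, which remove the N-terminal propeptide of fibrillar procollagens, differed by -0.01 and -0.15 log2. Adamts12 and Adamts7, which cut cartilage oligomeric matrix protein, differed by 0.24 and -0.01, with Adamts12 at 5.89 and 5.96 in OIR against 5.70 and 5.68, around the background level. Adamts13, which cuts von Willebrand factor, differed by -0.03. The remaining 6 (Adamts6, Adamts10, Adamts16, Adamts17, Adamts18 and Adamts19) ran from -0.19 to 0.51. Adamts19 was the highest of these, at 5.91 and 5.90 in OIR against 5.51 and 5.28, with both untreated arrays below background and a fitted interval of -0.00 to 1.01.

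Among the Mmp genes, Mmp14 came closest to the threshold. Mmp14 is a membrane-anchored collagenase that activates the precursor of Mmp2 at the cell surface. It read 7.84 and 7.47 in uninjected OIR against 7.00 and 7.24 in untreated day 17 retina, a difference of 0.53 ± 0.15 log2 (0.19 to 0.88), 1.45-fold, with an adjusted p of 0.362. The groups did not overlap; the difference was 0.35 without the first OIR array, and 0.35 to 0.72 over all single arrays left out. The other membrane-type members ran from -0.16 for Mmp16 to 0.17 for Mmp24.

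The gelatinases, which cut denatured collagen and type IV collagen of basement membrane, showed no difference in OIR beyond the spread of the arrays. Mmp2 read 6.64 and 6.83 in OIR and 6.60 and 6.74 in untreated day 17 retina. Mmp9 read 7.13 and 7.14 against 7.02 and 7.30. Both pairs overlapped, and the differences were 0.06 (-0.19 to 0.32) and -0.02 (-0.35 to 0.32) log2, so a 2-fold change lies outside both intervals. The remaining 6 tested Mmp genes, among them Mmp11, Mmp19 and Mmp28, ran from -0.17 to 0.09. Mmp9 is stored in neutrophils, and 0 of 7 neutrophil markers had a group mean above the negative control median in any group. Low marker signal does not show that these cells were absent, and their part in the Mmp9 values was not tested.

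The 4 inhibitors gave no call either. Timp1, the most inducible of them, read 6.34 and 5.97 in uninjected OIR against 5.87 and 5.79 in untreated day 17 retina. The OIR arrays differed by more than the groups, and the difference was 0.32 ± 0.21 log2 (-0.16 to 0.80). It was 0.14 without the first OIR array and 0.51 without the second. Timp2, which links Mmp14 to the Mmp2 precursor, read 8.61 and 8.51 against 8.15 and 8.73, with the untreated arrays on either side of the OIR pair. Timp3, which stays bound to the matrix and also blocks ADAM17 and aggrecanases, read 7.97 and 7.71 against 7.71 and 7.68, and its difference was 0.021 without the first OIR array and 0.28 without the second. Timp4 read 5.28 and 5.33 against 5.29 and 5.38, below the negative control median throughout. The differences of Timp2, Timp3 and Timp4 were 0.12 (-0.28 to 0.52), 0.15 (-0.10 to 0.40) and -0.03 (-0.28 to 0.23). In RefSeq Timp1, Timp3 and Timp4 overlap the synapsin genes Syn1, Syn3 and Syn2, and Timp2 overlaps Cep295nl; how the probes divide between them was not tested.

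**Figure D2:**
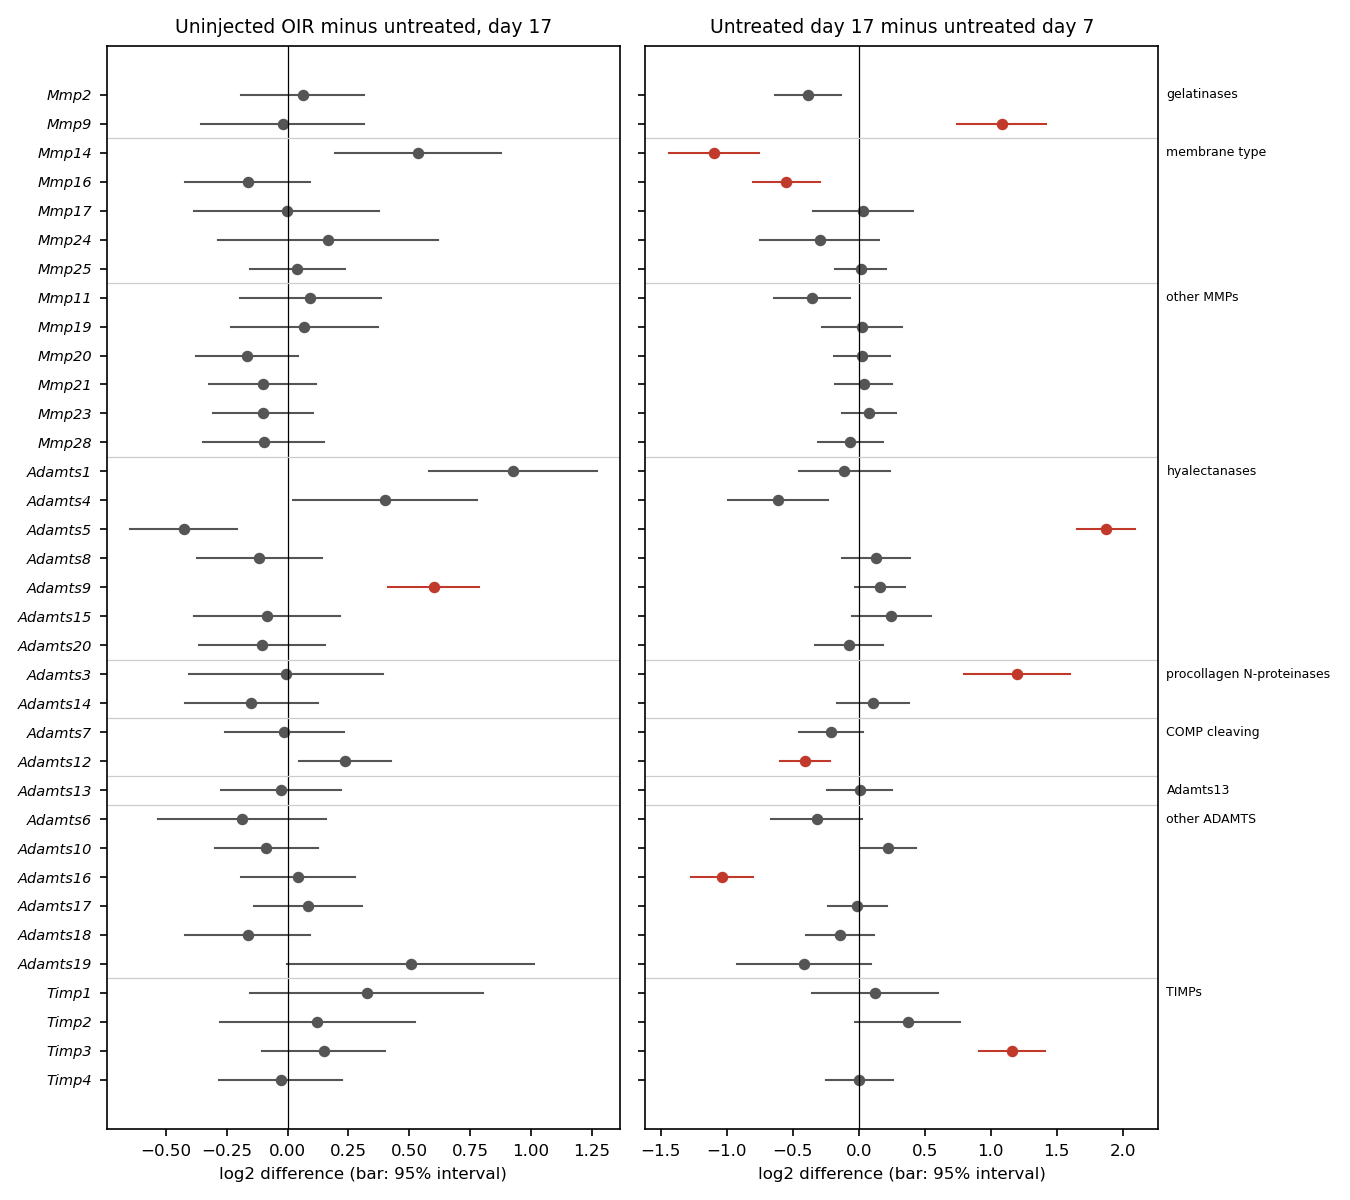
Log2 differences of the 35 tested members, ordered by role, in uninjected OIR minus untreated day 17 retina (left) and in untreated day 17 minus day 7 retina (right). Dots are the limma estimates, bars the 95% intervals, and red marks an adjusted p under 0.05: 1 member on the left (Adamts9) and 8 on the right. COMP is cartilage oligomeric matrix protein.

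Genes that act with these proteases were read from lists of related genes. The lists were chosen with earlier results of these data known, so their counts are not an independent result. Over all genes tested, 0.456% were called and higher in uninjected OIR. Basement membrane substrates had 5 of 9 genes called and higher: Fn1, encoding fibronectin, at 2.01 ± 0.15 log2 (4.02-fold), Nid1 at 1.40 ± 0.17, Lama4 at 1.27 ± 0.18, Lamb1 at 0.78 ± 0.12 and Nid2 at 0.67 ± 0.08. All 9 differences were above 0, with a median of 0.77 against -0.04 for all genes tested. In the list of plasminogen and proprotein convertase activation 1 of 9 rose, Plat, which encodes tissue plasminogen activator. Plat read 8.20 and 7.92 in OIR against 6.92 and 7.13, a difference of 1.03 ± 0.13 (2.05-fold; adjusted p = 0.0241). Plau, encoding urokinase, had a fitted difference of 0.30 (adjusted p = 0.666) over an untreated level below background.

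Of 9 other regulators and receptors, A2m and Cd44 rose. A2m encodes a broad inhibitor that traps proteases, and it read 7.83 and 7.67 in OIR against 5.78 and 5.95 (1.88 ± 0.17 log2, 3.69-fold, adjusted p = 0.00905), with untreated day 17 levels next to the negative control median. Cd44, a hyaluronan receptor that holds proteases at the cell surface, read 7.59 and 7.27 against 6.58 and 6.27 (1.00 ± 0.14, 2.00-fold, adjusted p = 0.0324). None of 10 ADAM proteases, 6 ADAMTS-like genes or 8 hyalectans and link proteins passed the test. The smallest p-values among these were for Adam23 (-0.36) and Adam17 (0.17), for Adamtsl1 (-0.18) and Papln (-0.13), and for Hapln1 (-0.25, with all arrays below background) and Vcan (0.31), the versican gene. Their medians were -0.03, -0.05 and -0.08 against -0.04 for all genes.

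Cell type markers were read on the same arrays. The mean of 7 endothelial markers was 7.41 and 7.16 log2 in uninjected OIR against 7.04 and 6.80 in untreated day 17 retina, with 0 of 7 called and 6 of 7 differences above 0. The mean of 6 pericyte and smooth muscle markers was 7.84 and 7.62 against 7.08 and 7.02, with 0 of 6 called and all 6 above 0. Gfap, which reactive glia express, was at 8.49 and 8.65 against 6.15 and 6.20, and it was the 1 of 3 astrocyte markers called; the other two, Pax2 and S100b, differed by -0.04 and -0.11, below the negative control median or next to it. The pigment epithelium markers were lower in OIR in 6 of 6 cases, with means of 6.80 and 6.16 against 7.14 and 6.62. Their part in the differences of Adamts9, Adamts1, Mmp14 and Adamts5 was not tested. In RNA of whole retina, fewer cells of a type and less RNA per cell cannot be told apart.

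ISOX DUAL was compared with PBS to ask how the inhibitor changed the members in injected OIR retina. No gene at all passed the test in limma (0 of 23255, 0%), and so 0 of 35 members did; 237 genes (1.02%) and 1 member, Adamts19, had an unadjusted p under 0.05. The members' median difference was 0.01 log2, as for all genes (0.01). For 34 of the 35 members the 95% interval lay within 2-fold in either direction, the exception being Adamts19. Adamts1 differed by -0.01 log2 (-0.35 to 0.33). Adamts9, at 5.70 and 5.64 with ISOX DUAL and 5.85 and 5.82 with PBS, lay below background on all 4 arrays, so its difference has no size here. Adamts10, a protease of fibrillin microfibrils, read 7.04 and 7.12 with ISOX DUAL against 7.25 and 7.32 with PBS, a difference of -0.20 (-0.41 to 0.01).

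Adamts19 read 6.49 and 7.16 with ISOX DUAL and 6.05 and 6.35 with PBS, so the second ISOX DUAL array was the highest of all 10. The difference was 0.63 ± 0.22 log2 (0.12 to 1.14; adjusted p = 1). It was 0.29 without the second ISOX DUAL array and 0.97 without the first. Timp1 was also high on that array, reading 5.87 and 6.51 with ISOX DUAL against 5.73 and 5.81 with PBS. Its difference of 0.42 ± 0.21 (-0.06 to 0.90) was 0.10 without the second ISOX DUAL array. This array also had the highest lens marker mean, with Cryaa, a lens crystallin gene, at 11.75 against 8.05 on the other ISOX DUAL array and 7.30 and 8.34 with PBS; the part of lens RNA in both values was not tested.

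Against uninjected OIR, both injected groups had lower values of the genes that stood out in OIR, but no member passed the test. With PBS, 0 of 23255 genes (0%) passed in limma and 997 (4.29%) had an unadjusted p under 0.05; with ISOX DUAL 1 gene passed (0.00430%) and 998 (4.29%) were under that unadjusted level. The log2 difference of Adamts9 was -0.40 ± 0.08 in PBS-injected retina (adjusted p = 0.371). After ISOX DUAL it was -0.57 ± 0.08 (adjusted p = 0.215). Both injected groups lay below background for this gene. Adamts1 differed by -0.67 ± 0.15 and -0.68 ± 0.15. Both comparisons use the same 2 uninjected OIR arrays, on which Adamts9 and Adamts1 were singled out above, so the values are given side by side and their likeness is not a result. At an unadjusted p under 0.05 there were 2 members with PBS, Adamts1 and Adamts9, and 4 with ISOX DUAL, which adds Adamts18 (0.27) and Adamts19 (0.92). Adamts18 read 6.96 and 7.26 with ISOX DUAL against 6.85 and 6.83 in uninjected OIR, so its higher value was on the second ISOX DUAL array. The Adamts19 value was 0.58 without the second ISOX DUAL array, the one with the highest lens marker mean.

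Mmp9 read 6.86 and 6.85 with PBS and 6.97 and 6.65 with ISOX DUAL, below both uninjected OIR arrays. Its differences were -0.29 (-0.62 to 0.05) and -0.33 (-0.66 to 0.01) log2, neither past the test. Mmp14 read 7.42 and 7.49 with PBS and 7.39 and 7.31 with ISOX DUAL, and its difference from uninjected OIR was -0.30 (-0.64 to 0.04) with ISOX DUAL. Adamts4 read 6.25 and 6.20, then 6.31 and 6.25. Timp2 and Timp3 stayed close to their other OIR values, at 8.54 and 8.55 and at 7.83 and 7.71 with PBS, and at 8.61 and 8.49 and at 7.70 and 7.61 with ISOX DUAL.

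Against untreated day 17 retina, 0 of 23255 genes (0%) passed in PBS-injected OIR and 4 (0.0172%) with ISOX DUAL, with 0 members in both. Unadjusted p-values under 0.05 were found for 2126 genes (9.14%) and 4 members with PBS, and for 1967 genes (8.46%) and 3 members with ISOX DUAL. Adamts5 was low in every OIR group: it read 7.33 and 7.33 with PBS and 7.42 and 7.34 with ISOX DUAL, against 7.81 and 7.83 in untreated retina. Its differences were -0.49 ± 0.09 log2 (adjusted p = 0.477) and -0.43 ± 0.09 (adjusted p = 0.269). The 6 OIR arrays thus lay within 7.33 to 7.42, clear of both untreated arrays, although these comparisons share the untreated arrays and are not independent. The pigment epithelium marker means were 6.27 and 6.44 with PBS and 6.07 and 6.50 with ISOX DUAL, and their part in the Adamts5 values was not tested.

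Adamts19 was above the untreated day 17 arrays in all OIR groups. Its difference was 0.80 ± 0.22 log2 after PBS (adjusted p = 0.537) and 1.43 ± 0.22 with ISOX DUAL (0.92 to 1.93; adjusted p = 0.180), and the latter was 1.09 without the second ISOX DUAL array. Its adjusted p ran from 0.0386, in the block with crossed array numbers, to 0.874 over all settings, and its untreated arrays lay below background. Adamts9 was below background in these groups. Mmp9 differed by -0.31 and -0.35, with all 4 injected arrays below both untreated ones. The ISOX DUAL value was -0.19 without the second ISOX DUAL array and -0.21 without the second untreated array. Mmp2, read at 6.87 and 6.92 with PBS and 6.86 and 6.97 with ISOX DUAL, differed by 0.23 (-0.02 to 0.48) and 0.24 (-0.01 to 0.49).

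**Figure D3:**
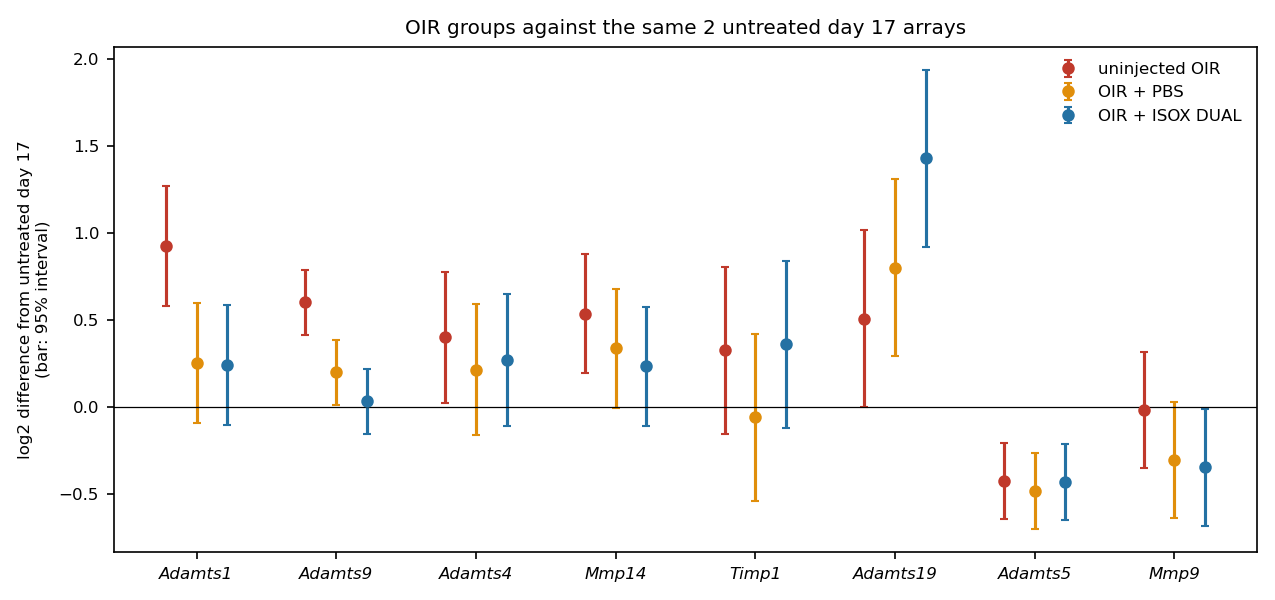
Log2 difference of 8 members from the same 2 untreated day 17 arrays in uninjected, PBS-injected and ISOX DUAL-injected OIR retina. Points are limma estimates and bars 95% intervals; Adamts9 and Adamts1 are highest in uninjected OIR, at 0.60 and 0.92, and Adamts19 with ISOX DUAL, at 1.43.

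The comparison of the untreated days asks how the members change as the retina matures. Between day 7 and day 17, 2454 of 23255 genes passed the test in limma (10.6%; 1223 higher, 5.26%, and 1231 lower, 5.29%), and 8 of 35 members did: 4 rose (Adamts5, Adamts3, Mmp9 and Timp3) and 4 fell (Mmp14, Adamts16, Mmp16 and Adamts12). The members' median was 0.01 log2, as for all genes (0.01). At an unadjusted p under 0.05 there were 12 members beside 22.8% of all genes, and for 19 of 35 the arrays of the days did not overlap (40.4% of all genes).

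Adamts5 had the largest rise. It read 6.04 and 5.84 at day 7 and 7.81 and 7.83 at day 17, a difference of 1.87 ± 0.09 log2 (1.66 to 2.09), 3.67-fold, with an adjusted p of 8.3e-05. Its genomic neighbour Adamts1 read 6.87 and 7.12, then 6.99 and 6.77, with overlapping pairs. Adamts3, whose product also helps to activate vascular endothelial growth factor C, rose from 7.79 and 7.20 to 8.75 and 8.64 (1.20 ± 0.17, 2.30-fold, adjusted p = 0.00474). Timp3, mutated in Sorsby fundus dystrophy, rose from 6.57 and 6.50 to 7.71 and 7.68 (1.16 ± 0.11, 2.24-fold, adjusted p = 0.000895). Mmp9 rose from 5.96 and 6.19 to 7.02 and 7.30 (1.08 ± 0.14, 2.12-fold, adjusted p = 0.00361). In each of these genes both day 17 arrays lay above both day 7 arrays.

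Mmp14 moved the other way between the days: it read 8.32 and 8.11 at day 7 and 7.00 and 7.24 at day 17, a difference of -1.10 ± 0.15 log2 (2.14-fold lower, adjusted p = 0.00362). All OIR values of Mmp14, from 7.31 to 7.84, lay between those of the day 7 and day 17 untreated arrays. Adamts16 fell from 7.00 and 7.07 to 5.97 and 6.03 (-1.04 ± 0.10, 2.05-fold lower, adjusted p = 0.00101), which brought it to the negative control level, where it stayed in every OIR group (5.93 to 6.14). Mmp16, like Mmp14 a membrane-bound enzyme that activates the Mmp2 precursor, fell from 7.22 and 6.99 to 6.59 and 6.52 (-0.55 ± 0.11, 1.46-fold lower, adjusted p = 0.0182). Adamts12 fell from 6.09 and 6.09 to 5.70 and 5.68 (-0.41 ± 0.08, adjusted p = 0.0177), below the negative control median. The calls of Mmp16 and Adamts12 were lost without either untreated day 17 array; that of Mmp16 was lost also without the first day 7 array, and that of Adamts12 without the second day 7 array or either ISOX DUAL array, with adjusted p-values of 0.0505 to 0.0662 in these fits. With array weights the calls of Mmp16, Adamts12 and Mmp9 were lost, and with the 4 arrays of the comparison alone those of Adamts3 and Mmp14 as well, which left Adamts5, Adamts16 and Timp3.

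Other members that differed between the days did not pass. Adamts4 read 6.44 and 6.81 at day 7 against 5.84 and 6.18 at day 17 (-0.61 ± 0.16 log2, adjusted p = 0.0531). Mmp2 read 7.13 and 6.98 against 6.60 and 6.74 (-0.38 ± 0.11, adjusted p = 0.0656). Timp2 read 8.07 and 8.07, then 8.15 and 8.73 (0.37, -0.03 to 0.77). Timp1, at 5.68 and 5.75 and then 5.87 and 5.79, and Timp4, at 5.23 and 5.44 and then 5.29 and 5.38, stayed at or below the negative control level.

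Within the lists of related genes, Pcsk6, a proprotein convertase, rose by 0.66 ± 0.10 log2 (adjusted p = 0.00712) as 1 of 9 in its list. Cd44, from a day 7 level below background, and Spock3, a testican, rose by 0.76 and 0.81, and Reck, a membrane-anchored inhibitor of Mmp2, Mmp9 and Mmp14, fell by 0.45 (adjusted p = 0.0270), together 3 of 9. Of 6 ADAMTS-like genes 1 rose, Adamtsl1 (0.70, from a day 7 level below background). Of 8 hyalectans and link proteins, Ncan, the neurocan gene, fell by 0.77 (adjusted p = 0.0151), and Hapln1 passed with higher values at day 17, but its 4 arrays all lay below the negative control median and no size is given. None of 9 basement membrane substrates or 10 ADAM proteases passed, and the list medians ran from -0.05 to 0.38 against 0.01 for all genes.

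The make-up of the retina differed between the days as well. The mean of 5 rod markers was 9.95 and 9.15 log2 at day 7 and 11.24 and 11.33 at day 17, with 4 of 5 called and higher. Pericyte and smooth muscle markers had 3 of 6 called and higher, endothelial markers 2 of 7 higher and 1 lower, and pigment epithelium markers 2 of 6 higher. The part of these cells in the changes of the 8 members was not tested.

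**Figure D4:**
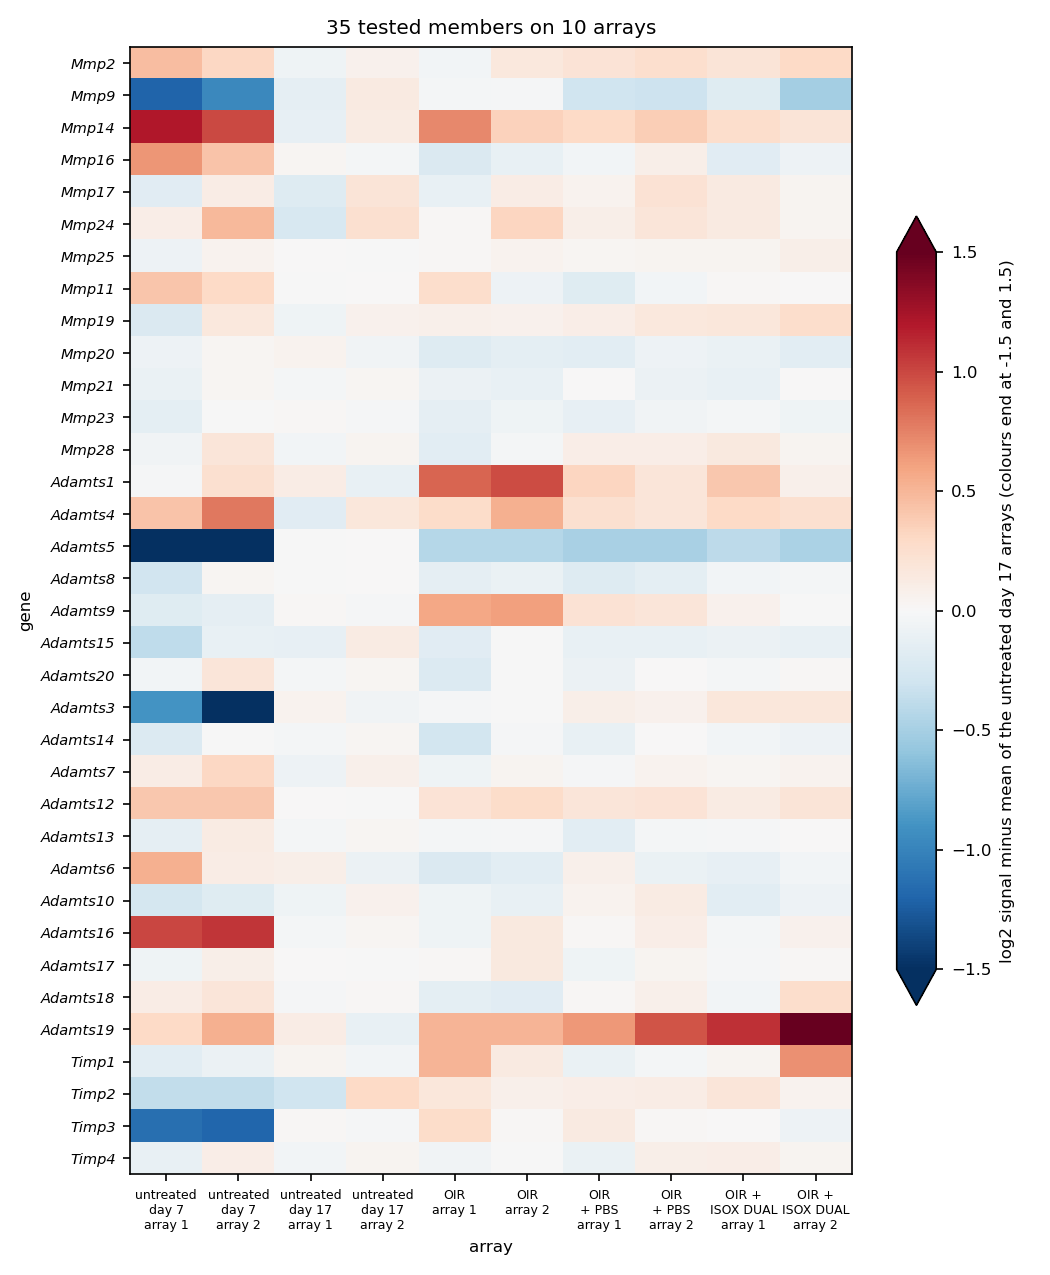
Log2 signal of the 35 tested members (rows, by role) on the 10 arrays (columns), minus the mean of the untreated day 17 arrays; colours end at 1.5 log2 in either direction. The clearest blocks are at day 7, where Adamts5, Adamts3, Timp3 and Mmp9 are low and Mmp14, Adamts16 and Mmp16 high; in the OIR columns Adamts1 and Adamts9 are high on the uninjected arrays and Adamts19 on the second ISOX DUAL array.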

How the data were processed

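Per the labels' protocols, total RNA of whole retina was extracted with Trizol and labelled with biotin by the WT Terminal Labeling Kit for Affymetrix whole-transcript arrays. The deposited table gives 1 log2 value for each transcript cluster and array, a scale read from the values (0.78 to 13.67; array medians 5.55 to 5.68); the software, normalization, background correction and genome build were not given in the sources used here. The values were used as deposited. Clusters were named from the platform annotation, with symbols updated through RefSeq genes of GRCm38.p6. Of 65956 clusters, 30604 had 1 symbol, 2146 several and 33206 none; a gene took its single-symbol cluster of highest mean. Mmp15 and Adamts2 are not analysed here.

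The model had 1 mean per group over all 10 arrays (limma 3.58.1, R 4.3.3, lmFit and then eBayes with no trend), with 5 residual and 2.76 prior degrees of freedom, for 7 comparisons; p-values were adjusted by Benjamini-Hochberg over the 23255 genes tested. ± is the standard error. Having 2 arrays a group limits precision, and the median 95% half-width of a difference was 0.31 log2. No fold is given where the lower group lay at or below the negative control median on both arrays, which was decided with the data in view. Array numbers in the titles were checked for pairing, and the main model had no block for them.

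Values on every array are given for members past the threshold in any comparison, the 3 of smallest p in each, and Timp1, Timp2, Timp3, Timp4, Mmp2, Mmp9, Mmp14, Adamts1, Adamts4 and Adamts9. Mmp12 and the range of its neighbours were added after their values were seen. Related genes are named where they passed or were among the 2 of smallest p of their list in OIR. The members and lists were chosen with earlier results of these data known. Alternatives were quantile normalization, no filter and a stricter filter, a replicate block, array weights, an intensity trend, the mean of a gene's clusters, the 4 arrays of a comparison alone and leaving out each array. Promoter windows are RefSeq's. The fit was tested on simulated data with independent noise on each array. Those data held no effect shared between arrays, so the test does not cover such an effect.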

Additional observations from a re-analysis of the deposited data

How the results depend on the processing

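The count of members called in uninjected OIR against untreated day 17 retina was 1, and 0 with array weights or with the 4 arrays of the comparison alone, 2 with an intensity trend, and 0 to 1 without single arrays; all genes called fell from 115 to 0 with the 4 arrays alone, to 12 with array weights and to between 0 and 54 without any 1 array of the untreated day 17 or OIR groups. For day 17 against day 7 the count of 8 became 5 with array weights, 3 with the 4 arrays alone and 7 to 8 without single arrays. The 4-array fits use fewer samples; the cause of the change under array weights or an intensity trend was not tested. In the other 5 comparisons the count was 0 in every planned setting. The array numbers were not taken to pair the samples, since the labels give no shared litter, batch or day and not every pair of groups correlated above 0.1. The differences between the second and first arrays correlated across genes at 0.583, 0.809 and 0.587 among the uninjected groups and 0.399 between the injected ones, but at -0.406 to -0.0567 where only 1 of the groups was injected. The member calls of the main model all came from comparisons among the uninjected groups, where these correlations were above 0. For those comparisons the low correlations of the injected groups do not settle whether arrays of the same number share an effect. With the number as a replicate block the counts were 1 in OIR, 9 for day 17 against day 7 and 0 elsewhere. Crossing the numbers of both injected groups, chosen after the data were seen, gave 2 members in uninjected OIR (Adamts1 and Adamts9), 1 for ISOX DUAL against untreated day 17 retina (Adamts19) and 9 between the days.

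Of 35 differences of named members followed through the settings, 629 values kept direction and side of the threshold, 26 lost the threshold, 3 gained it and 6 changed sign. Many settings could not change direction. The filters, intensity trend, replicate block, fit to a comparison's own arrays and leaving out another group's array keep the difference of group means. So does the mean of a gene's clusters, as no member had several. A difference not called in the main model could not lose the threshold. The 629 is therefore no measure of how stable the directions are. The sign changes were of small log2 differences in OIR. Without single arrays Mmp2 ran from -0.036 to 0.16 (-0.0035 without the first untreated day 17 array), Mmp9 from -0.16 to 0.12, Timp2 from -0.17 to 0.42 and Timp4 from -0.070 to 0.014; Timp4 was at 0.027 after quantile normalization. The causes were not tested. Low signal limits the 17 members below the negative control median on every array.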
